A study of Mus musculus with 5 samples.

Results

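Broad domains of H3K27me3, the histone mark laid down by Polycomb repressive complex 2, were described in progenitors from mouse bone marrow that had been transformed with Hoxa9 and Meis1. The domains were chosen by their length alone: a domain was any autosomal region of the H3K27me3 list that was 10000 bp or longer. By this rule 676 of 29566 autosomal H3K27me3 regions were domains, or 2.29%, and the whole list held 33769 regions. Lineage-depleted bone marrow of C57B6 mice had been transduced with the retroviral vectors MIGR1-HA-Hoxa9 and MIGR1-Flag-Meis1 and cultured with IL3, and all libraries came from such cells. Hoxa9 was precipitated through its HA tag, so the Hoxa9 peaks are those of the introduced protein, while C/EBPα, H3K4me1 and H3K27me3 were precipitated with antibodies against themselves. There was 1 library for each of these 4 precipitations, and no replicate. Every value below therefore describes these libraries, and no test between conditions was possible.

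H3K27me3 is found over genes held silent by Polycomb complexes, and it forms its longest stretches over the clusters of developmental regulators such as the Hox genes. H3K4me1 marks enhancers, both active and poised, and also flanks promoters. Hoxa9 is a homeodomain transcription factor, and Meis1 is its cofactor. C/EBPα, a factor of the leucine zipper class, drives differentiation along the myeloid lineage.

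The domains were few but held a large part of the mark. They covered 11.3 Mb of the 60.4 Mb of autosomal H3K27me3, or 18.8% of its length. They held 2224092 of its 7184265 tags, or 31.0%. They took up 0.470% of the autosomal span of the lists. Their lengths ranged from 10016 to 90836 bp, with a median of 13944 bp and quartiles of 11610 and 18746 bp. Most were near the lower limit: 392 were under 15 kb, 142 were of 15 to 20 kb, 99 of 20 to 30 kb, 39 of 30 to 50 kb and 4 were longer than 50 kb. The members just above the limit measured 10016 bp (chromosome 7), 10017 bp (chromosome 13) and 10024 bp (chromosome 11), with 0.150, 0.135 and 0.204 tags per bp. The regions just below it measured 9990 bp (chromosome 3), 9977 bp (chromosome 11) and 9972 bp (chromosome 11), with 0.141, 0.232 and 0.0845 tags per bp. The limit thus fell within a continuous range of lengths and densities.

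Tags per bp, a measure of how densely the mark was recovered, had a median of 0.185 in the domains, with quartiles of 0.155 and 0.217. The medians were 0.153 in regions of 5 to 10 kb, 0.0863 in those of 2 to 5 kb and 0.0562 in shorter ones. Fold enrichment, the caller's ratio at each region, had a median of 29.5 in the domains against 22.0, 9.48 and 5.42 in the same 3 classes of shorter regions. These values came from the same peak calls as the lengths and are given as a description. Among the domains themselves the median was 0.177 tags per bp at 10 to 15 kb, 0.185 at 15 to 20 kb, 0.209 at 20 to 30 kb and 0.216 at 30 kb or more. Across the 676 domains the Spearman correlation of length and tags per bp was 0.30. All points come from the same library and the same calls.

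**Figure D1:**
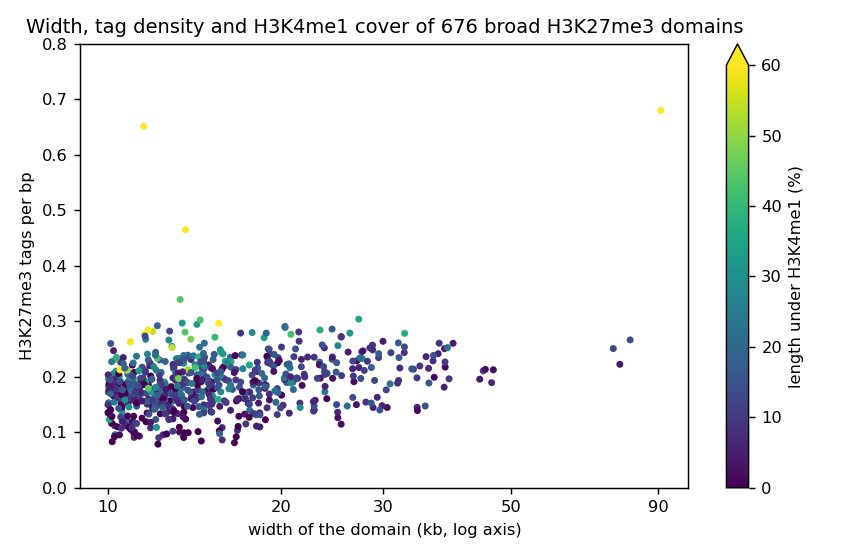
Width (kb, log axis) and H3K27me3 tags per bp of each of the 676 domains, coloured by the percent of its length under H3K4me1. Most points lie between 0.1 and 0.3 tags per bp, 2 lie above 0.5, and these are almost wholly under H3K4me1.

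A small number of domains stood apart in density. The domain at chr8:126061025-126151860 (mm9, as all positions here) had 0.680 tags per bp, and the one at chr1:172993718-173005268 had 0.652. They were the only domains of 0.5 tags per bp or more. H3K4me1 covered 94.6% of the chromosome 8 domain and 97.2% of the chromosome 1 domain, against a median of 11.4% over all domains. The next densest, at chr1:173005352-173018996, began 83 bp after the end of the previous one, with 0.465 tags per bp and 82.7% under H3K4me1. Next in density were those at chr10:126960780-126974139 (0.339 tags per bp, 43.9% under H3K4me1) and at chr19:45295617-45322852 (0.304, 36.2%). The domains with most of their length under H3K4me1 were the 3 densest, followed by one at chr11:118902470-118918052 (74.9%) and one at chr14:22800581-22811088 (66.9%). The H3K4me1 regions held 0.0800 tags per bp in the chromosome 8 domain and 0.161 and 0.131 in the 2 domains on chromosome 1. In the other 582 domains with H3K4me1 the median was 0.0454 and the highest value 0.0859. The chromosome 8 value thus lay within the range of the others, and both chromosome 1 values lay above it. Whether the positions of these dense domains are amplified in the cells or collapsed in the genome build was not tested, since the input was not analysed here. Their tag densities, their H3K4me1 cover, the C/EBPα summits in both chromosome 1 domains and the width of the chromosome 8 domain are uncertain for this reason. The H3K4me1 cover of all domains and of the width and density groups with the 2 densest domains is given with and without them. The domain at chr1:173005352-173018996 was kept in both cases.

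The domains were spread unevenly over the 19 autosomes. Chromosome 2 held 79 and chromosome 11 held 64, against 50.1 and 33.3 if the 676 domains were shared out by span. Per Mb of span, chromosome 11 had 0.539 (95% exact Poisson interval 0.415 to 0.688), chromosome 19 had 0.532 (0.361 to 0.755) and chromosome 2 had 0.442 (0.350 to 0.551). Chromosome 16 had the fewest, 14 domains or 0.147 per Mb (0.0804 to 0.247). All autosomes together had 0.280 per Mb. As a share of all H3K27me3 regions, domains made up 2.52% on chromosome 2 and 2.37% on chromosome 11. The share was 2.88% on chromosome 19, 1.675% on chromosome 16 and 2.29% over all autosomes. The high counts on chromosomes 2 and 11 thus went with high counts of H3K27me3 regions of any length. Intervals here and below cover counting error only.

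Domains lay near other domains more often than shifted windows did. The median distance to the nearest other domain was 296550 bp and the lower quartile was 27478 bp. Another domain lay within 100 kb of 254 domains (37.6%). To set this and the next values against other positions, the same windows were moved along the chromosome by 12 fixed distances, from 100 kb to 5 Mb in both directions. Windows moved in this way had a domain other than their own within 100 kb in 14.0% of cases on average, with a lowest value of 6.34% and a highest of 27.5% over the 12 shifts. With gaps of up to 100 kb, 254 domains formed 103 runs, of which 69 held 2 domains, 25 held 3 and 9 held 4 or more, while 422 stood alone.

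The run with most domains was at chr17:35450325-35647132, with 6 domains in 196.8 kb, and 72.4% of it lay under H3K27me3 of any width. It held no Hoxa9 summit, and its 3 C/EBPα summits all lay between domains. Runs of 5 domains were found at chr1:74823524-75002624, chr19:44739820-44916105 and chr6:29276871-29449258. None of these held a Hoxa9 summit. The chromosome 1 run held no C/EBPα summit either, the chromosome 19 run held 2, both inside domains, and the chromosome 6 run held 3, all between domains.

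Most domains had further H3K27me3 regions close by. A further H3K27me3 region of any length lay within 1 kb of 516 domains (76.3%), at a median distance of 245 bp over all domains. In the 10 kb outside each end, other H3K27me3 regions covered 35.0% of the length, against 6.57% around shifted positions (3.14% to 11.8%). With H3K27me3 regions joined across gaps of up to 3 kb, 1720 blocks reached 10 kb, and 597 of them held a domain. The widest block, at chr6:52123814-52283941, measured 160.1 kb and was made of 17 listed regions.

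The widest domains included stretches where the mouse Hox clusters are known to lie. The second widest, at chr6:52152460-52232845 (80386 bp), lies at the Hoxa cluster. The third, at chr11:96109310-96186459 (77150 bp), and a further one of the 10 widest, at chr11:96024851-96071438 (46588 bp), lie at the Hoxb cluster. The fourth, at chr2:74480198-74555361 (75164 bp), lies at the Hoxd cluster. H3K4me1 covered 13.9% of the Hoxa domain in 12 regions and 13.5% of the Hoxd domain in 12 regions. It covered 3.43% of the wider Hoxb domain and 1.90% of the narrower one. The Hoxa domain held no summit of either factor, the Hoxd domain held 1 C/EBPα summit, and the wider Hoxb domain held 1 Hoxa9 summit. The other domains among the 10 widest were on chromosomes 5, 8, 9, 13 and 14. The one at chr5:140003434-140043107 held 1 C/EBPα summit. Those at chr8:126061025-126151860 and chr8:59788188-59834458, chr9:91243775-91287894, chr13:78308814-78353549 and chr14:63848622-63893745 held none of either factor.

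H3K4me1 was found in most domains but on a small part of their length. Of the 676 domains, 585 shared at least 1 bp with an H3K4me1 region, a share of 86.5% (95% exact interval 83.7 to 89.0). The same windows at shifted positions gave 42.6% on average and between 30.2% and 54.3%. H3K4me1 covered 13.7% of the length of the domains, against 8.76% at shifted positions (5.61% to 12.3%). It covered 13.0% without the 2 densest domains. H3K27me3 regions of 5 to 10 kb had a like cover, 13.95% of their length, and 67.1% of them were touched. Every one of the 12 shifts gave a lower value than the domains on both measures. Few H3K4me1 regions reached a fold enrichment of 10: 2.02% of those wholly inside domains and 3.40% of those away from the domains. With only these strong regions, 5.33% of domains were touched against 4.999% at shifted positions, and 0.576% of domain length was covered against 1.08%. For these strong H3K4me1 regions 6 of 12 shifts were above the domains in the share touched and 11 of 12 in the length covered, so the direction turned for length. With H3K27me3 regions joined across 3 kb, the cover of the blocks was 1.05 times that at shifted positions, against 1.57 times for the domains as listed.

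Single domains differed widely. No H3K4me1 region was met by 91 domains, 1 by 180, 2 by 176, 3 by 108 and 4 or more by 121. The median domain had 11.4% of its length under H3K4me1, with quartiles of 5.45% and 18.5%, and 13 domains had over 50%. The widest domains with none were at chr1:75368242-75392217 (23976 bp), chr9:121128986-121149005, chr5:120242055-120261760, chr11:85694212-85713089 and chr2:30690602-30709372. Domains without H3K4me1 had a median length of 12892 bp and 0.153 tags per bp, and domains with it 14307 bp and 0.190. All 43 domains of 30 kb or more touched H3K4me1, against 82.7% of those of 10 to 15 kb, and longer regions offer more length to be touched. H3K4me1 covered 14.2% of the length of domains of 30 kb or more and 14.5% at 10 to 15 kb, but without the 2 densest domains it covered 9.71% and 14.3%. The medians over domains were 9.09% and 12.1% with all domains included. Across all domains the covered share and length had a Spearman correlation of -0.03 (n = 676).

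**Figure D2:**
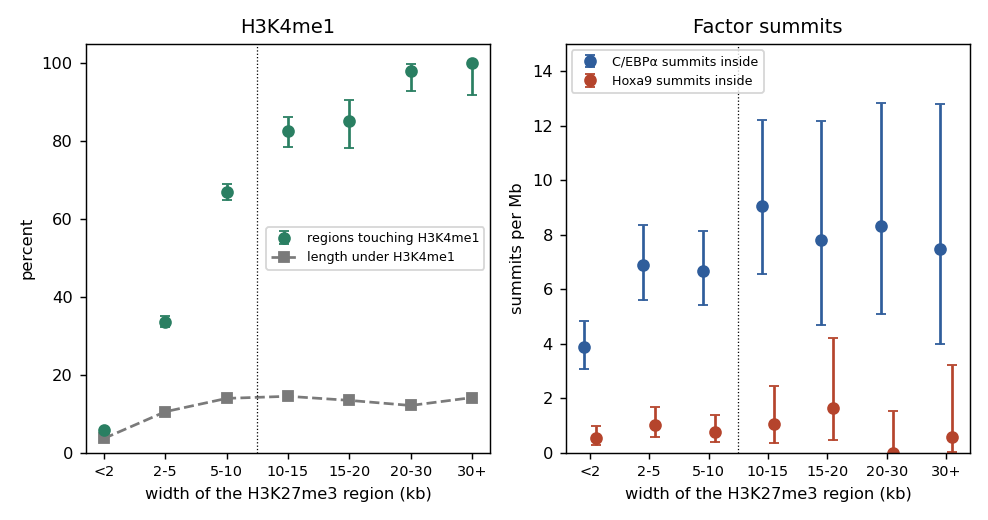
Left, percent of H3K27me3 regions that touch H3K4me1 (points, 95% exact intervals) and percent of their length under it (squares), by width of the region. Right, C/EBPα and Hoxa9 summits per Mb inside the regions with 95% exact Poisson intervals; domains lie right of the dotted line. The share touched reaches 86.5% over all domains. The covered length is 12.1% to 14.5% in the domain classes and 13.95% in regions of 5 to 10 kb. The widest class falls to 9.71% without the densest domain.

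Denser domains had more of their length under H3K4me1. In 4 groups of 169 domains ordered by tags per bp, H3K4me1 covered 8.64%, 11.8%, 12.9% and 19.3% from the lowest to the highest group, and the highest group had 17.0% without the 2 densest domains. The share of domains touched was 72.8%, 85.2%, 91.1% and 97.0% in the same order. Across domains the Spearman correlation of tags per bp and H3K4me1 cover was 0.37 (n = 676). The points share both libraries, and the H3K27me3 density of a domain rests on the same calls as its length.

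H3K4me1 cover was higher in the middle of the domains than near their ends. From the end to the middle, in 5 equal steps on each side, H3K4me1 covered 6.81%, 8.75%, 13.6%, 18.3% and 21.1%. Each of the 4 width classes gave an increase at every step, with 5.93% to 24.9% at 10 to 15 kb and 7.86% to 18.1% at 30 kb or more. Without the 2 densest domains the values ran between 6.12% and 20.4% over all domains, between 5.71% and 24.8% at 10 to 15 kb and between 3.84% and 13.7% at 30 kb or more. Beyond 2 kb from either end, the core of the domains was covered to 16.0%, against 8.70% at shifted positions (5.55% to 12.2%). This value for the core includes the 2 densest domains.

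H3K4me1 was frequent at the H3K27me3 summit, the position where the caller placed the peak of the mark. This summit lay under an H3K4me1 region in 426 of 676 domains, a share of 63.0% (59.3 to 66.7). Shifted summits gave 9.30% on average (5.92% to 13.9%). The midpoint of the domain lay under H3K4me1 in 147, or 21.7% (18.7 to 25.05). In 518 domains the mirror image of the summit about the midpoint lay at least 2 kb from the summit. In these domains the summit was under H3K4me1 in 320 (61.8%) and the mirrored point in 47 (9.07%). The summit alone was covered in 289 of them, the mirrored point alone in 16, and both in 31. H3K4me1 covered 44.4% of bases within 1 kb of the H3K27me3 summit, 18.1% at 1 to 2 kb, 9.70% at 2 to 3 kb and 6.47% at 4 to 5 kb. The H3K27me3 summit lay within 2 kb of an end in 37 domains (5.47%), while 23.9% of domain length lay that near. Whether the higher H3K4me1 cover in the middle of domains is separate from the cover at these summits was not tested.

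The H3K4me1 regions over these summits were short parts of the domains. Their median length was 1258 bp, their median fold enrichment was 6.12, and 423 of 426 lay wholly inside the domain. The summits of both marks were a median of 160 bp apart, and 332 (77.9%) were within 500 bp. Domains whose summit was under H3K4me1 had a median of 0.192 tags per bp, against 0.167 in the other 250. The share of summits under H3K4me1 was 48.4% in H3K27me3 regions of 5 to 10 kb, 20.7% in those of 2 to 5 kb and 3.43% in shorter ones. With H3K4me1 regions of fold enrichment 10 or more it was 2.81% in the domains against 1.19% at shifted summits (0.447% to 1.92%). The lists cannot tell both marks on the same nucleosomes, different alleles and different cells apart.

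**Figure D3:**
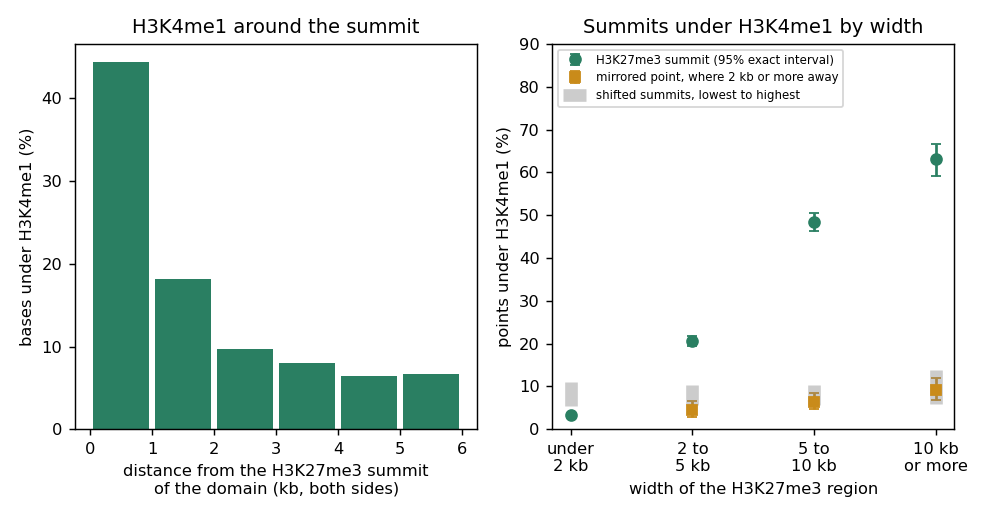
Left, percent of bases under H3K4me1 by distance (kb) from the H3K27me3 summit of each domain. Right, percent of H3K27me3 summits (circles) and of mirrored points at least 2 kb away (squares) under H3K4me1 by width of the region, with 95% exact intervals, beside the range over 12 shifts (grey). In domains of 10 kb or more the summits lie at 63.0% and the mirrored points at 9.07%.

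The ends of the domains were not rich in H3K4me1. Within 2 kb on either side of an end, H3K4me1 covered 6.96% of bases, against 8.83% at shifted positions (5.75% to 12.1%), and 8 of 12 shifts were above the domains. It covered 7.35% of the 2 kb outside and 6.57% of the 2 kb inside. Without the 2 densest domains, 6.78% of the bases within 2 kb on either side were covered. Of the 1352 ends, 306 had an H3K4me1 region within 2 kb (22.6%, 20.4 to 24.96), against 23.9% of shifted ends (16.0% to 31.3%). The same 8 shifts were above the domains in this share. Both ends had an H3K4me1 region within 2 kb in 45 domains, a single end in 216 and neither end in 415. An H3K4me1 region crossed 93 ends (6.88%). These crossing regions, 89 in all, had a median length of 1385 bp, and 28.1% of them held a C/EBPα summit and 19.1% a Hoxa9 summit. Among the 1384 H3K4me1 regions wholly inside a domain, the median length was 785 bp, and 3.90% held C/EBPα and 0.506% held Hoxa9. The shares were 15.4% and 4.39% in the 97531 other autosomal H3K4me1 regions. Fold enrichment of the H3K4me1 regions inside domains was not lower, with a median of 5.24 against 4.85 elsewhere, although 2.02% of them and 3.40% of the others reached 10.

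Hoxa9 summits were fewer inside the listed domains than at shifted positions. The 676 domains held 10 Hoxa9 summits, or 0.883 per Mb (95% exact Poisson interval 0.423 to 1.62). Shifted positions gave 3.51 per Mb on average, with all 12 shifts above the domains (2.58 to 4.33), and the autosomes as a whole gave 2.67. Shorter H3K27me3 regions had values in the same range, with 0.765 per Mb at 5 to 10 kb, 1.01 at 2 to 5 kb and 0.553 in shorter ones. With regions joined across 3 kb, Hoxa9 summits numbered 3.76 per Mb of block, or 1.03 times the value at shifted positions. The joined blocks are another set: they take in the gaps, and 597 of the 1720 held a domain. The 10 summits lay in 10 different domains. Their fold enrichments ran from 4.23 to 8.58, and 4 of the 10 were above the median of 6.06 over all autosomal Hoxa9 peaks. No listed Hoxa9 peak of fold enrichment 10 or more had its summit inside a domain, against 0.535 per Mb at shifted positions (0.353 to 0.796).

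Of the 10 Hoxa9 summits inside domains, 8 lay under H3K4me1 (80.0%, 44.4 to 97.5) and 4 had a C/EBPα summit within 200 bp (40.0%, 12.2 to 73.8). Among Hoxa9 summits neither inside nor within 10 kb of a domain these shares were 69.6% and 46.4%, within both intervals. The strongest was at chr8:90974506-90975134 (fold enrichment 8.58), 2703 bp from the nearer end of a domain of 10484 bp. The next was at chr9:70079545-70080397 (7.92), in a domain with only 0.102 tags per bp, and its C/EBPα partner was within 200 bp. The domain with most H3K4me1 among the 10 was at chr11:23971195-23984978 (51.6% of its length), and its Hoxa9 summit also had C/EBPα within 200 bp. Neither of these summits lay under H3K4me1. The other domains were at chr2:84572395-84592071, chr6:94125742-94136812, chr11:96109310-96186459 and chr11:97425029-97440154, chr12:85097552-85112220, chr15:88964787-88982398 and chr16:30057025-30073248. Each of the 10 domains held at least 2 H3K4me1 regions. Over all 676 domains, 26.0% met 2 such regions, 16.0% met 3 and 17.9% met 4 or more. The median length of the 10 domains was 14898 bp.

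C/EBPα was also less frequent inside the domains, though present in more of them. The domains held 95 C/EBPα summits in 83 domains, or 8.39 per Mb (6.79 to 10.3), against 16.1 at shifted positions (11.7 to 22.2) and 10.7 over the autosomes. All 12 shifts were above the domains. Without the 2 densest domains the density was 8.29 per Mb. Shorter H3K27me3 regions had lower values than the domains, with 6.67 per Mb at 5 to 10 kb, 6.89 at 2 to 5 kb and 3.87 in shorter ones. The C/EBPα peaks inside domains had a median fold enrichment of 6.94, against 7.75 for C/EBPα peaks neither inside nor within 10 kb of a domain. The strongest, at chr11:84335686-84336800, reached 43.2 and lay 8680 bp from the nearer end of a domain of 27337 bp. Of the 95 summits, 60 lay under H3K4me1 (63.2%, 52.6 to 72.8), against 63.8% of C/EBPα summits away from the domains. Of the 95, 4 had a Hoxa9 summit within 200 bp (4.21%, 1.16 to 10.4), against 11.6% (11.2 to 11.99) away from the domains.

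The domains with most C/EBPα summits held 3 each. They were at chr2:71360624-71393328, with 36.9% of its length under H3K4me1, and at chr3:93245739-93256044, with 44.8%. A further 8 domains held 2: both adjoining dense domains at chromosome 1 named above, and domains at chr3:96237446-96272945, chr5:73393170-73408211, chr9:69597969-69622910, chr11:61446240-61461876, chr15:99406563-99426059 and chr18:38748859-38761017. Their H3K4me1 cover lay between 15.5% and 97.2%, and the values of both chromosome 1 domains are uncertain as stated above. Only 3 domains held C/EBPα and no H3K4me1. Both factors were found in 5 domains and neither in 588. Neither factor had a summit inside or within 10 kb outside of 450 domains (66.6%).

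Outside the domains the factors were concentrated next to the ends. Over the 10 kb outside each end, Hoxa9 summits numbered 3.70 per Mb (2.75 to 4.88), against 3.38 at shifted positions (2.66 to 3.99), and C/EBPα summits 14.1 (12.1 to 16.2) against 15.9 (11.03 to 19.5). Both values lay inside the range of the 12 shifts. For C/EBPα, 9 of the 12 shifts were above the domains, among them every shift of 1 Mb or less. With only the shifts of 1 Mb or less the C/EBPα ratio was 0.808, against 0.885 with all 12 (0.764 to 1.02). For Hoxa9 peaks of fold enrichment 10 or more the value was 1.11 per Mb against 0.511 at shifted positions (0.222 to 1.04), above all 12 shifts. For C/EBPα peaks of that strength it was 5.25 against 5.52 (4.23 to 7.17). The first 1 kb differed from the rest. It held 28 Hoxa9 summits, or 20.7 per Mb (13.8 to 29.9), against 2.93 at shifted positions (0.750 to 5.21), a ratio of 7.06. It held 52 C/EBPα summits, or 38.5 per Mb (28.7 to 50.4), against 16.3 (9.06 to 22.9), a ratio of 2.36. At 1 to 2 kb the values were 3.70 for Hoxa9 and 15.5 for C/EBPα. At 2 to 10 kb Hoxa9 had 1.57 against 3.46 at shifted positions (2.87 to 4.20), and C/EBPα had 10.8 against 15.9 (11.6 to 19.3). The first 1 kb inside the ends held 0 Hoxa9 summits, against 3.80 per Mb at shifted positions, and 18 C/EBPα summits, or 13.3 per Mb, against 15.9.

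**Figure D4:**
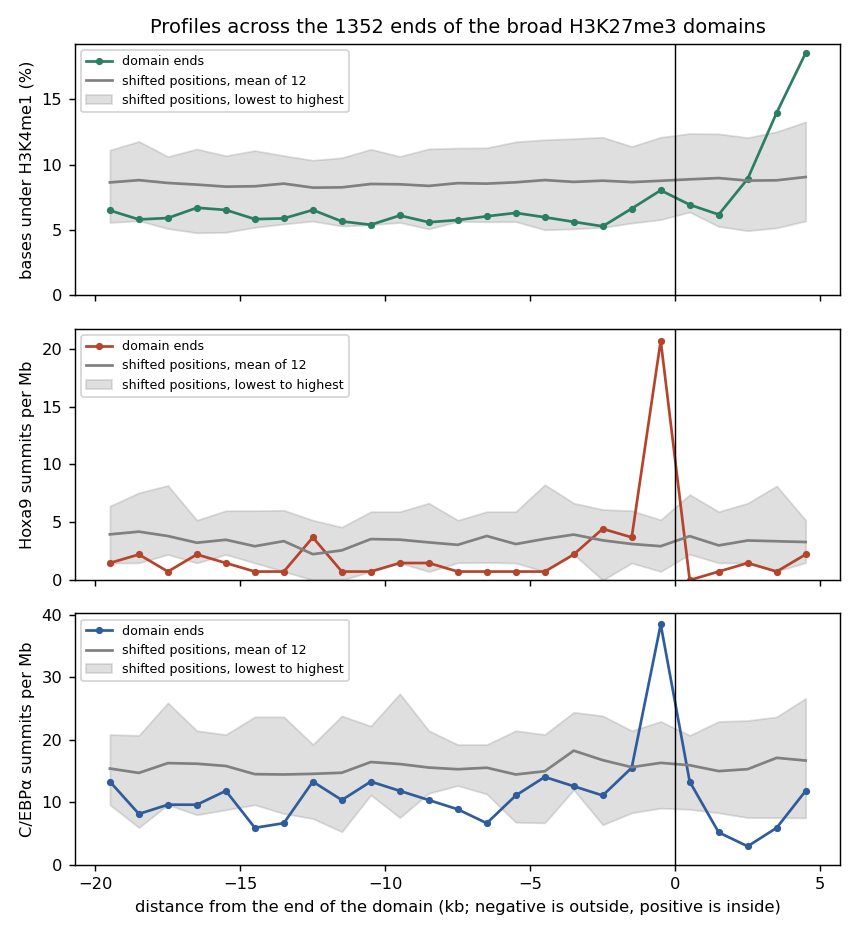
H3K4me1 cover (percent of bases), Hoxa9 summits per Mb and C/EBPα summits per Mb in 1 kb steps across the 1352 domain ends, from 20 kb outside (negative) to 5 kb inside. Coloured lines are the domains, grey lines the mean of 12 shifts and bands their lowest to highest values. The first 1 kb outside reaches 20.7 Hoxa9 and 38.5 C/EBPα summits per Mb, above both bands.

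Many of these summits lay in short gaps between a domain and the next H3K27me3 region. The 28 summits came from 26 different Hoxa9 peaks, of which 2 were counted at the ends of 2 domains. In 22 of the 26 the next H3K27me3 region lay within 3 kb of the domain, as it did in 36 of the 50 different C/EBPα peaks and at 886 of all 1352 ends (65.5%). Between each domain and the next H3K27me3 region there were 854 gaps of up to 3 kb, counted once each, and 25 of them held a Hoxa9 summit. This made 49.0 Hoxa9 summits per Mb of gap (31.7 to 72.3), against 2.64 when the same gaps were shifted (0 to 5.88), a ratio of 18.5. C/EBPα summits numbered 37 in 36 of these gaps, or 72.5 per Mb (51.0 to 99.9) against 18.0 (11.8 to 29.4), a ratio of 4.03. Both factors had a summit in 19 gaps. Gaps of 3 to 10 kb held 3.74 Hoxa9 summits per Mb (0.772 to 10.9) against 4.37 when shifted, and 29.9 C/EBPα summits (19.2 to 44.5) against 15.8 (8.54 to 22.5). The gaps were examined after the concentration next to the ends had been seen.

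Gaps with a factor were wide among the short gaps and held H3K4me1. The median gap of up to 3 kb measured 302 bp, while those with Hoxa9 had a median of 1156 bp and those with C/EBPα 1341 bp. H3K4me1 was present in 81 of the 854 gaps, and 24 of these held Hoxa9 (29.6%, 19.99 to 40.8) and 31 held C/EBPα (38.3%, 27.7 to 49.7). Of the 773 gaps without H3K4me1, 1 held Hoxa9 and 5 held C/EBPα. The gaps with H3K4me1 were also wider, with a median of 1018 bp against 267 bp. Counted by ends, a Hoxa9 summit lay in the first 1 kb of 26 of 212 ends with H3K4me1 in the 2 kb outside (12.3%, 8.17 to 17.4) and of 2 of 1140 ends without it (0.175%, 0.0213 to 0.632).

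**Figure D5:**
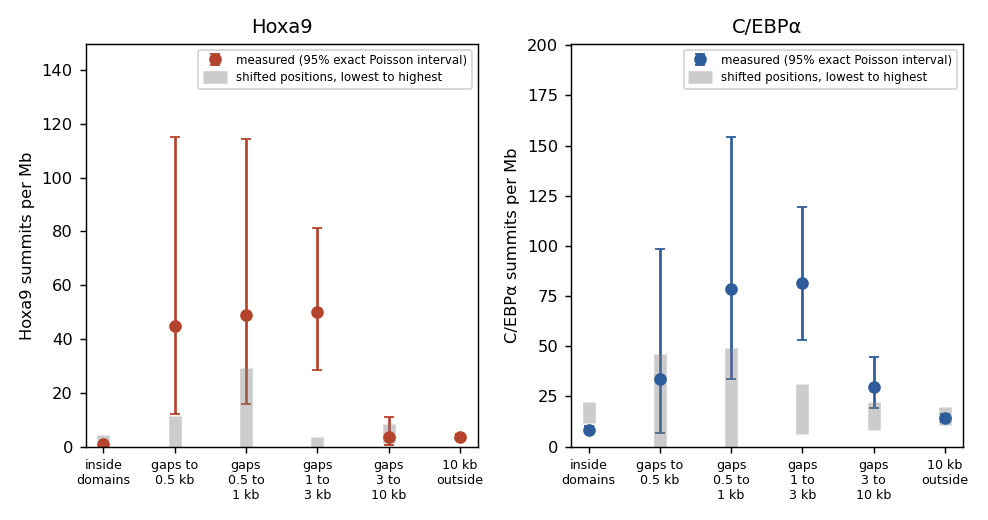
Hoxa9 (left) and C/EBPα (right) summits per Mb inside the domains, in gaps to the next H3K27me3 region by gap width, and in the 10 kb outside, with 95% exact Poisson intervals; grey bars span 12 shifts of the same windows. Gaps of 1 to 3 kb hold 50.1 Hoxa9 and 81.4 C/EBPα summits per Mb.

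The Hoxa9 peaks next to the ends included stronger ones than those inside. Of the 26 peaks, 9 (34.6%) had a fold enrichment of 10 or more, against 16.8% of Hoxa9 peaks away from the domains. Their median was 7.19 against 6.06 over all autosomal Hoxa9 peaks. Their summits lay under H3K4me1 in 22 (84.6%, 65.1 to 95.6) and within 200 bp of a C/EBPα summit in 18 (69.2%, 48.2 to 85.7). Hoxa9 summits away from the domains gave 69.6%, within the first interval, and 46.4%, below the second. The strongest of the 26 peaks, at chr5:118654220-118655428, reached 32.38 in fold enrichment. It filled most of a gap of 1765 bp between a pair of domains, chr5:118635570-118653922 and chr5:118655688-118671479. A second gap between a pair of domains, of 1113 bp at chromosome 15, held a Hoxa9 peak (chr15:78550833-78551735, fold enrichment 14.14) with a C/EBPα summit within 200 bp. Both peaks are named as the only 2 counted at 2 domains, a choice made after their values were seen. The first 1 kb outside H3K27me3 regions of 5 to 10 kb had 14.5 Hoxa9 summits per Mb (11.1 to 18.6), that of regions of 2 to 5 kb had 6.36 (4.84 to 8.21) and that of shorter regions 2.60 (2.14 to 3.12), each beside 3.05 to 3.69 at shifted positions. For C/EBPα the values were 24.0, 20.7 and 7.77.

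The way in which a caller divides a stretch of H3K27me3 decides where an end or a gap lies. When regions were joined across gaps of up to 3 kb, the blocks of 10 kb or more held 3.76 Hoxa9 summits per Mb inside, against 0.883 in the domains as listed, and 3.78 in their first 1 kb outside, against 20.7. C/EBPα in the first 1 kb outside was 15.7 per Mb for the joined blocks and 38.5 for the domains. Whether the mark is lost in a gap or only falls below the caller's threshold there was not tested, because the lists give no signal between regions.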

How the data were processed

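ChIP-seq peak lists of Hoxa9, C/EBPα, H3K4me1 and H3K27me3 were used, 1 library each, on build mm9, and the input library was not analysed here. The tools named in the submitters' processing notes were CASAVA 1.8.2, BWA 0.6.2 and MACS 1.4, with the caller's control and settings not given in the sources used here. As the file headers state, deposited tag counts are whole tags per region and not normalized, the deposited fold enrichment is a linear ratio, and the deposited p score is 10 times the −log10 of the authors' p-value. The deposited false discovery rate is in percent. A score of 3100 was shared by 602 of 676 domains. Library depth is unknown here, and the lists held 285488 Hoxa9, 1408867 C/EBPα, 6242014 H3K4me1 and 7470847 H3K27me3 tags, which are not depths. Sites too weak to be listed are missing, so an absent summit does not show absence of the protein.

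Overlap meant 1 bp or more, and factors were placed by their summits. Windows were moved by 100, 200 and 500 kb and by 1, 2 and 5 Mb in both directions, and windows that left the span of the lists were dropped, which left at least 625 of 676 domains and 1250 of 1352 ends. The mean and range over 12 shifts are descriptions. Shares carry exact Clopper-Pearson intervals and densities exact Poisson intervals at 95%. Window code was tested on simulated lists. The domains, measures and alternatives were chosen with earlier results of these data known. Domains were named by a rule: the 10 widest, the 5 densest, the 5 with most H3K4me1 and the widest 5 with none, the 10 with most summits of each factor, the 4 runs with most domains, and the 3 regions on each side of 10000 bp. The annotation at hand was of another build, so domains are named by position, and no sequence is printed. Python 3.11.15, numpy 2.4.6, pandas 2.3.3, scipy 1.17.1 and matplotlib 3.10.9 were used.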

Additional observations from a re-analysis of the deposited data

Results flagged for a closer look

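Chromosome X was outside the rule, and the values in the results leave it out. It held 12 H3K27me3 regions of 10 kb or more, covering 0.172 Mb. Adding them gave 688 domains and moved none of the values recomputed with them beyond their intervals. Their median was 0.134 tags per bp, against 0.185 in the 676 autosomal domains, and 8 of the 12 touched H3K4me1 (66.7%, 95% exact interval 34.9 to 90.1). They held 0 Hoxa9 summits and 1 C/EBPα summit.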

How the results depend on the processing

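In all, 20 values were recomputed under 114 alternatives, of which 31, on the first 1 kb outside, on H3K27me3 summits and on ratios to shifted positions with joined regions or strong peaks, were chosen after seeing the data. Of these alternatives 59 left the value within its interval or margin, 51 moved it and 4 put a ratio on the other side of 1. Hoxa9 in the 10 kb outside, at 1.10 times the shifted level (0.813 to 1.44), gave 0.994 when shifted windows that met H3K27me3 were dropped and 0.979 with regions joined across 3000 bp. The interval of this ratio spans 1 and holds both alternatives, so neither shows a change of direction. Hoxa9 inside, at 0.251 times, gave 1.03 with joined regions. H3K4me1 cover of the length, at 1.57 times, gave 0.534 with H3K4me1 regions of fold enrichment 10 or more. No paired analysis was possible because each precipitation had 1 library. With a limit of 20 kb there were 142 domains, with 0.214 tags per bp and 26.1% within 100 kb of another. Of these domains 98.6% touched H3K4me1, and 13.0% of their length was covered. They held 0.241 Hoxa9 summits per Mb inside, from 1 summit (0.00611 to 1.34), and this interval holds the main value of 0.883. C/EBPα summits numbered 11.6 per Mb in the 10 kb and 28.2 in the first 1 kb outside. The intervals of both C/EBPα values hold the main values. Of the H3K27me3 summits, 69.7% lay under H3K4me1. With regions joined across 3000 bp there were 1720 blocks, with 0.102 tags per bp, 51.0% within 100 kb of another, 79.0% touching H3K4me1, 9.57% covered and 5.77% covered at the edges. Joined blocks had 3.76 Hoxa9 and 10.4 C/EBPα summits per Mb inside, 16.4 C/EBPα summits in the 10 kb outside, and 3.78 Hoxa9 and 15.7 C/EBPα summits in the first 1 kb; summits of joined blocks are undefined and were not run. Ratios to shifted positions for joined blocks were 1.70 for touching H3K4me1, 1.05 for length covered and 0.646 for edges. Another domain lay within 50 kb of 29.9% and within 250 kb of 48.1%. With H3K4me1 at a fold enrichment of 10 or more, 5.33% were touched, 0.576% of the length, 0.461% of the edges and 2.81% of H3K27me3 summits were covered, with ratios to shifted positions of 1.07 for touching and 0.401 for edges. Without domains of 0.5 or more tags per bp, 13.0% of the length was covered. Edge windows of 5 kb gave 8.62%. Factor peaks that reached 10 in fold enrichment gave 0 Hoxa9 and 2.21 C/EBPα summits per Mb inside, 1.11 and 5.25 in the 10 kb outside, and 8.14 and 13.3 in the first 1 kb, with ratios to shifted positions of 0 for Hoxa9 inside, 2.17 for Hoxa9 in the 10 kb outside and 0.378 for C/EBPα inside. Hoxa9 peaks sharing 1 bp with a domain numbered 1.68 per Mb. Outer windows of 5 kb gave 6.36 Hoxa9 and 18.3 C/EBPα summits, and those of 20 kb gave 2.59 Hoxa9 summits. With shifts of 1 Mb or less, ratios to shifted positions were 1.83 for domains touching H3K4me1, 1.38 for length covered and 0.692 for edges; with shifted windows that met no H3K27me3, the first 2 were 2.19 and 1.46. Causes of these changes were not tested. Peak lists limit what can be seen: weak sites below the caller's threshold are missing.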
